A study of Rattus norvegicus with 8 samples.

Results

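The genes described here are the ligands and receptors of the 4 classical axon guidance systems, as measured in rat spinal cord cultures with and without FGF9, a fibroblast growth factor that is secreted and activates FGF receptor tyrosine kinases. Membership was decided by gene symbol: ephrins and Eph receptors, semaphorins with plexins and neuropilins, Slits with Robo receptors, and netrins with Dcc and the Unc5 receptors. The rule found 54 genes of the 14506 measured, and a further 15 of the 69 RefSeq symbols that fit it were not analysed here. There were 11 Eph receptors, 7 ephrins, 16 semaphorins, 7 plexins and neuropilins, 6 Slit and Robo genes, and 7 netrins and netrin receptors, which made 28 ligands and 26 receptors.

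The cultures came from embryonic spinal cord of Sprague-Dawley rats, a mixed preparation of neurons and glia in which axons become myelinated, and no group carried a transgene or deletion per the labels. Control cultures were left untreated, FGF9 cultures received the human protein at 100 ng/ml, and RNA was taken after 24 h or after 10 days, so that 8 arrays formed 4 groups of 2. The sample titles and cell type labels name myelinating cultures, whereas the source field names astrocytes derived from neurospheres. The growth protocol describes both, with cords stripped of meninges before they were dissociated, and confluent astrocyte layers grown from neurospheres of newborn striatum. Markers of neurons and of myelinating oligodendrocytes were detected on all 8 arrays, with mean log2 values of 9.84 to 11.5 over 16 neuronal genes and 9.17 to 11.5 over 10 myelin genes. Nothing in the labels states that the 2 arrays of a group came from separate cultures, so the spread behind every p-value below may be technical. In such bulk RNA, fewer cells of a type and less RNA per cell cannot be told apart.

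Guidance ligands steer growing axons by attraction or repulsion, and most signal through single-pass receptors that act on the cytoskeleton of the growth cone. Ephrins are membrane-bound ligands of Eph receptor tyrosine kinases. Semaphorins act through plexins, with neuropilins as the ligand-binding partners for most secreted class 3 semaphorins. Slits are secreted repellents that bind Robo receptors, and netrins attract axons through Dcc and repel them through Unc5 receptors. In spinal cord many of these genes stay active after development, in neurons, astrocytes and cells of the oligodendrocyte lineage, where several also affect cell migration and myelination.

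At each time, a control array and the FGF9 array of its replicate number have a common array-name prefix and are called a pair. Pair 1 at 24 h carries CL1, pair 2 at 24 h and pair 1 at 10 days carry CL2, and pair 2 at 10 days carries AA1. The 2 AA1 arrays stood apart from the rest: they correlated at r = 0.968 with each other and at 0.897 to 0.939 with the other 6, which correlated at 0.962 to 0.989 among themselves. The 2 controls lay further apart than the FGF9 difference for 36 of 54 members at 24 h and for 30 of 54 at 10 days. This was not counted over all genes, so it is not read as particular to the members. Each difference is therefore given with its value in both pairs and with 2 tests in limma, 1 that ignores the pairs and 1 that keeps the pair as a block, both adjusted by Benjamini-Hochberg over all 14506 genes at a threshold of 0.05. The size of an FGF9 difference is the same in both fits and only its standard error (SE, n = 2 arrays a group) changes. Without the block that error is the spread of arrays within groups. With the block the gap between pairs is removed, and the error measures how far the FGF9 differences of the pairs disagree, pooled over both times. Unless stated, the SE after ± is from the fit without the block, also beside an adjusted p with the block. The median SE over members was 0.43 without the block and 0.16 with it. Values are on a log2 scale, where 1 unit is a doubling and array medians lay at 6.62 to 6.73. The 5 members that stayed under 6 on every array (Epha1, Epha8, Ntn5, Robo3 and Robo4) were low; they count in the totals, and their own differences are not read.

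After 10 days of FGF9, 3 semaphorins were higher (Sema3e, Sema7a and Sema5b) and the Slit receptor Robo2, its ligand Slit1 and the ephrin Efnb2 were lower. These 6 genes passed the test only with the pair as a block, 11.1% of the 54 members, where 6.43% of all genes passed. By direction the members called were 3 higher (5.56%, against 3.12% of all genes) and 3 lower (5.56%, against 3.31%). Without the block 0 members and 0% of all genes passed at 10 days (smallest adjusted p of a member 0.397 in limma), with 5 members and 816 genes at an unadjusted p under 0.05. The 6 calls differ in how much they rest on single pairs, as given with each gene below. Beyond the calls, 22 members were higher in both pairs (40.7%, against 33.2% of all genes) and 25 were lower in both (46.3%, against 30.0%), so that 7 members had pairs of opposite sign. The median member difference was 0.05, beside 0.02 over all genes.

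The promoters of the called genes are shown because the transcription factors downstream of FGF receptor and ERK signalling include ETS factors and AP-1, whose binding letters can be looked for in the sequence. RefSeq promoters (build GRCr8, 250 bases before to 50 after the gene's start) were matched for 45 of 54 members and for 5 of the 6 called genes. Of these, 3 are printed 5′ to 3′ on the gene's strand, the most stable call (Robo2) and 2 of the genes that were higher; capitals mark the ETS core CCGGAA. Robo2 lies on the minus strand with this window at chr11:26526363-26526662, Sema3e on the minus strand at chr4:21510325-21510624 and Sema5b on the minus strand at chr11:78730540-78730839.
Robo2: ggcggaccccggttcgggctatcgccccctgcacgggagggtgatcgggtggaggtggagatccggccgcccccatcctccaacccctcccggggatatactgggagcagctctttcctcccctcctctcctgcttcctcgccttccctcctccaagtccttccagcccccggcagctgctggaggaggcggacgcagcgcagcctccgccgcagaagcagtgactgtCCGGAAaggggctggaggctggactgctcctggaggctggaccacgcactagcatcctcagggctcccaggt
Sema3e: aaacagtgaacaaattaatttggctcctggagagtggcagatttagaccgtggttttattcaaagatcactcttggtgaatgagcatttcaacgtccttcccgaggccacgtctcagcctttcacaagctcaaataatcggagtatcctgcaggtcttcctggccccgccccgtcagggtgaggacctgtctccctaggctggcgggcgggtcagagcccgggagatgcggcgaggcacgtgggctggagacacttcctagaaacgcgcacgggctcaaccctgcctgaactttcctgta
Sema5b: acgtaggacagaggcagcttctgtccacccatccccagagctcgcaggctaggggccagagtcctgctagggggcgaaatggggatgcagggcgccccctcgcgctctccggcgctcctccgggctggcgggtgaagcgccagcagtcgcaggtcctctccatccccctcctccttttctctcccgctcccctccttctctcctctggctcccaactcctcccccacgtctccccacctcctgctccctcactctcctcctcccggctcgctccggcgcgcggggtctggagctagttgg
Both strands were searched. Among the 5 called genes with a sequence, only Robo2 held a CCGGAA, starting at -22 from the gene's start, and none held the AP-1 letters TGANTCA. Over the members, CCGGAA was found in 3 of 45 promoters (6.67%; Efna2, Robo2 and Sema3d), against 15% of 33469 RefSeq promoters. TGANTCA was found in 1 of 45 (2.22%; Epha10), against 7.33%. A match describes letters in this window and no binding.

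Among the semaphorins, Sema3e, a secreted class 3 ligand that binds plexin D1 directly, gave the smallest adjusted p of any member. At 10 days its controls stood at 9.08 and 8.64 in pairs 1 and 2 and its FGF9 arrays at 9.98 and 10.05. Both FGF9 arrays lay above both controls. Sema3e was higher by 1.16 ± 0.21 (2.23-fold; 0.91 and 1.41 in the pairs; limma adjusted p = 0.0253 with the block, 0.397 without). At 24 h it read 9.16 and 9.10 in controls and 9.71 and 9.89 with FGF9, again without overlap, a difference of 0.67 that did not pass. Left without pair 2 at 10 days, its adjusted p with the block was 0.0597.

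Sema7a, a membrane-anchored semaphorin that signals through integrins and promotes axon outgrowth, gave the largest called difference. Its 10-day controls read 8.78 and 9.36 and its FGF9 arrays 10.72 and 10.20, so the groups did not overlap. The difference was 1.39 ± 0.45 (2.61-fold; 1.94 and 0.835 in the pairs; limma adjusted p = 0.0395 with the block). At 24 h the controls stood at 10.13 and 9.30 and the FGF9 arrays at 10.61 and 9.68, which follow the pair more than the treatment. Without either 24 h pair the 10-day adjusted p with the block was 0.0557, and without pair 1 at 10 days the difference was 0.835.

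Sema5b, a transmembrane semaphorin with thrombospondin repeats, had a wider gap between pairs than between treatments. It stood at 7.26 and 8.96 in the 10-day controls and at 8.33 and 9.71 with FGF9, so the FGF9 array of pair 1 lay below the control of pair 2. Within pairs it was higher by 1.07 and 0.75, a mean of 0.91 ± 0.65 without the block and ± 0.16 with it (limma adjusted p = 0.0347 with the block). No early difference of that size was seen, with 7.22 and 7.63 in controls and 7.48 and 7.54 with FGF9 at 24 h. Left without either 24 h pair its 10-day adjusted p was 0.0571, and without pair 1 at 10 days it was 0.0690. Without the block, leaving out 1 array at 10 days moved its difference between 0.064 (without the control of pair 1) and 1.76 (without that of pair 2), with 0.22 and 1.60 without the FGF9 array of pair 2 and of pair 1.

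**Figure D1:**
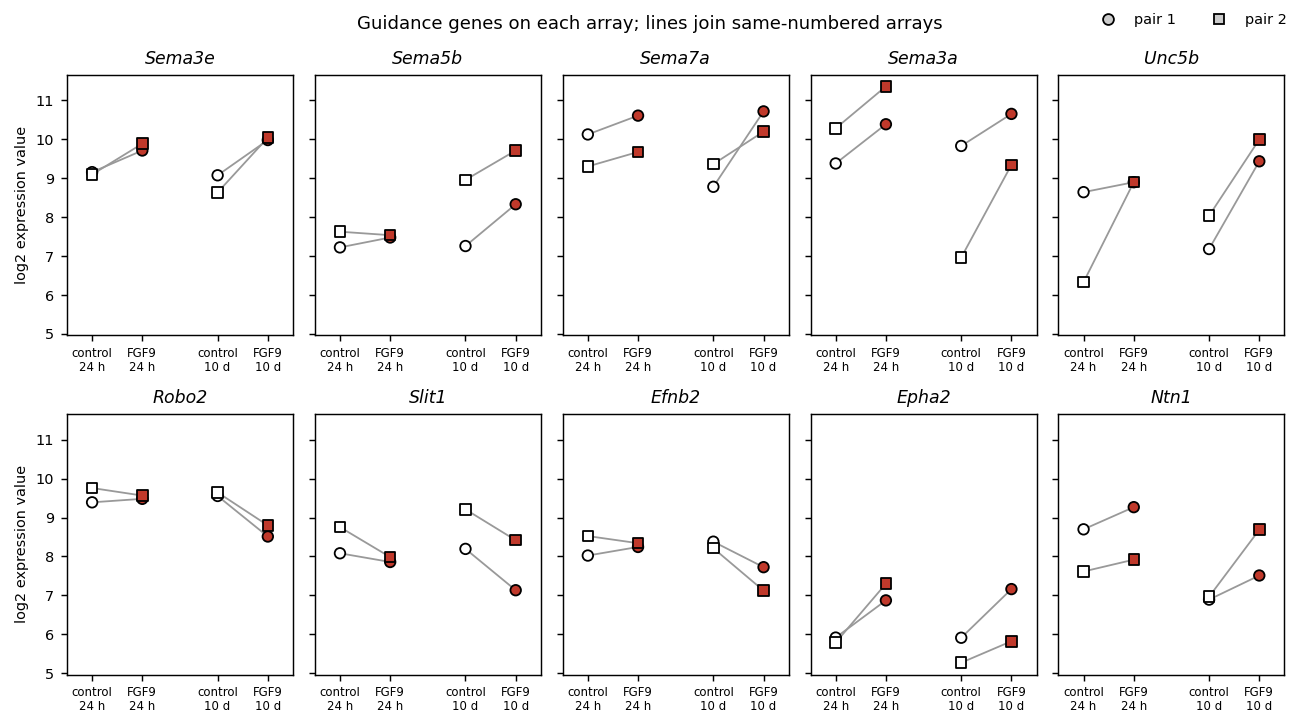
Log2 values of 10 guidance genes on each of the 8 arrays, with open symbols for control, red symbols for FGF9, circles for pair 1, squares for pair 2 and lines joining the 2 arrays of a pair. For Sema3e the 10-day FGF9 arrays (9.98 and 10.05) lie above both controls and for Robo2 (8.51 and 8.80) below both, while for Sema5b and Slit1 both lines slope the same way from starting points that differ by pair.

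As a group the 6 class 3 semaphorins had median differences of 0.53 at 24 h and 0.56 at 10 days. Of these, 4 were higher in both pairs at both times (Sema3a, Sema3c, Sema3e and Sema3f), where 14.2% of all genes were. Sema3b was lower in both pairs at both times, and Sema3d had pairs of opposite sign at both. Only Sema3e passed the test. Sema3a, the prototype repellent of sensory and motor axons, stood at 9.83 and 6.96 in 10-day controls and at 10.65 and 9.34 with FGF9. The control of pair 2 was far below the other 3 arrays, and the groups overlapped. Its difference was 1.60 ± 0.98 (0.82 and 2.38 in the pairs; limma adjusted p = 0.0520 with the block). At 24 h Sema3a read 9.38 and 10.28 in controls and 10.39 and 11.36 with FGF9, with both FGF9 arrays above both controls and pair differences of 1.01 and 1.08.

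Sema3c, which acts through neuropilins and can attract cortical axons, passed at neither time. Its 24 h controls read 9.26 and 9.83 and its FGF9 arrays 10.29 and 10.39, without overlap, a difference of 0.79 ± 0.34 (limma adjusted p = 0.184 with the block). At 10 days the pair differences were 0.28 and 0.21, and the change between the times did not pass (adjusted p = 0.395 with the block). Sema3d moved with the pair instead: at 24 h its controls stood at 8.15 and 11.07 and at 10 days at 11.05 and 7.74, and the CL2 arrays were the high ones at both times. Sema3b was lower by 0.50 at 24 h (8.60 and 7.58 in controls, 8.13 and 7.05 with FGF9; limma adjusted p = 0.237 with the block), and the groups overlapped.

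The 10 other semaphorins had medians of -0.25 at 24 h and -0.05 at 10 days. Early, 6 were lower in both pairs (32.9% of all genes were). Late, 5 were higher and 5 lower in both pairs (33.2% and 30.0% of all genes were). Sema4g and Sema4f, transmembrane class 4 members, were the lowest of them at both times. Sema4f read 7.72 and 7.48 in 24 h controls and 7.11 and 6.98 with FGF9, and 6.92 and 7.43 against 6.53 and 6.70 at 10 days, so its groups did not overlap at either time. Its differences were -0.56 at both times (limma adjusted p with the block 0.245 and 0.0828). For Sema4g the 24 h groups did not overlap (7.74 and 8.36 in controls, 7.44 and 7.54 with FGF9), but at 10 days the values were 7.33 and 8.79 against 6.77 and 8.06, which differ more between pairs than between treatments. That 10-day difference of -0.64 ± 0.60 (limma adjusted p = 0.0823 with the block) was 0.084 when the control of pair 2 was left out and 0.0027 when the FGF9 array of pair 1 was.

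None of the plexins passed at either time. All 5 plexins were lower on average at 24 h (median -0.26), with 4 of them lower in both pairs (32.9% of all genes were). At 10 days Plxnb3, Plxnd1 and Plxnb2 were higher in both pairs and Plxna2 and Plxna3 were lower in both. Plxnd1, the receptor that Sema3e binds, stood at 6.83 and 7.30 in 10-day controls and at 7.46 and 8.35 with FGF9, without overlap. It was higher by 0.84 ± 0.46 (0.63 and 1.05 in the pairs; limma adjusted p = 0.0612 with the block). Plxnb3, a plexin of oligodendrocyte lineage and neurons, stood at 8.23 and 8.03 in those controls and at 8.67 and 8.87 with FGF9, also without overlap. At 24 h its pairs went the other way, from 9.56 and 8.60 in controls to 9.14 and 8.17.

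Neither neuropilin passed at either time. Nrp1, the co-receptor for Sema3a, read 8.55 and 8.38 in 10-day controls and 8.19 and 7.49 with FGF9, without overlap, a difference of -0.62 ± 0.31 (-0.36 and -0.89 in the pairs; limma adjusted p = 0.0875 with the block). Nrp2, which binds Sema3f and Sema3c, read 8.24 and 8.76 in 24 h controls and 9.13 and 9.34 with FGF9, with both FGF9 arrays above both controls (0.73 ± 0.55; adjusted p = 0.428 with the block). By 10 days the pairs of Nrp2 had opposite signs, 0.91 and -0.47.

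In the Slit and Robo family 5 of 6 members were lower in both pairs at 10 days (30.0% of all genes were), but 2 of these, Robo3 and Robo4, are the low genes named above. Of the 4 members that reached 6 on some array, Slit1, Slit3 and Robo2 were lower in both pairs and Robo1 was higher. Their median was -0.58, against -0.14 at 24 h. Slit3 read only 5.83 to 6.45 over the 8 arrays, under every array median, so it too was low, and it enters that median. Robo2, one of the receptors through which Slits repel axons, stood at 9.55 and 9.65 in 10-day controls and at 8.51 and 8.80 with FGF9. The groups were clearly apart, with each group's arrays within 0.29 of each other. Robo2 was lower by 0.94 ± 0.21 (1.92-fold; -1.04 and -0.85 in the pairs; limma adjusted p = 0.0275 with the block, 0.535 without). At 24 h its values were 9.39 and 9.76 in controls and 9.48 and 9.56 with FGF9, which overlap. Of the 6 calls, only Robo2 passed in the block fit under every other scaling, filter and left-out pair tried. Its limma adjusted p was 0.0224 to 0.0313 over scalings and filters, but with any pair left out it passed only narrowly. Left-out pairs are a weak check, because leaving out either 24 h pair gives the same 10-day fit. Leaving out a 10-day pair leaves 1 array in each 10-day group (differences of -0.85 and -1.04), and the error then comes from the 24 h arrays alone.

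Slit1, a ligand of Robo2 made by neurons, read 8.19 and 9.21 in 10-day controls and 7.13 and 8.42 with FGF9. The FGF9 array of pair 2 lay above the control of pair 1, so the groups overlapped although both pairs went down, by 1.06 and 0.79 as measured on the log2 scale. The difference was -0.93 ± 0.53 without the block and ± 0.18 with it (limma adjusted p = 0.0419 with the block), and it did not pass when any 1 of the 4 pairs was left out (0.0535 to 0.0913). Without the block, its difference was -0.28 without the FGF9 array of pair 1, -0.42 without the control of pair 2, -1.43 without the control of pair 1 and -1.57 without the FGF9 array of pair 2. At 24 h Slit1 stood at 8.08 and 8.75 in controls and 7.86 and 7.98 with FGF9, without overlap, a difference of -0.50. Robo1, the other well-measured Robo receptor, had 10-day pair differences of 0.05 and 0.25.

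Neuronal transcripts moved with these falls. All 16 of 16 neuronal markers were lower in both pairs at 10 days (median -0.83), where 30.0% of all genes were. In the fit with the block 11 of them fell (3.31% of all genes did), and 0 passed without it. Their mean log2 level was 10.6 and 11.5 in the 10-day controls and 9.84 and 10.6 with FGF9, and 0 of the 16 were under 6 on every array. At 24 h the median of the same list was -0.22, with 15 of 16 lower in both pairs (32.9% of all genes were). The part of this neuronal shift in the lower levels of Robo2, Slit1 and other members was not tested.

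**Figure D2:**
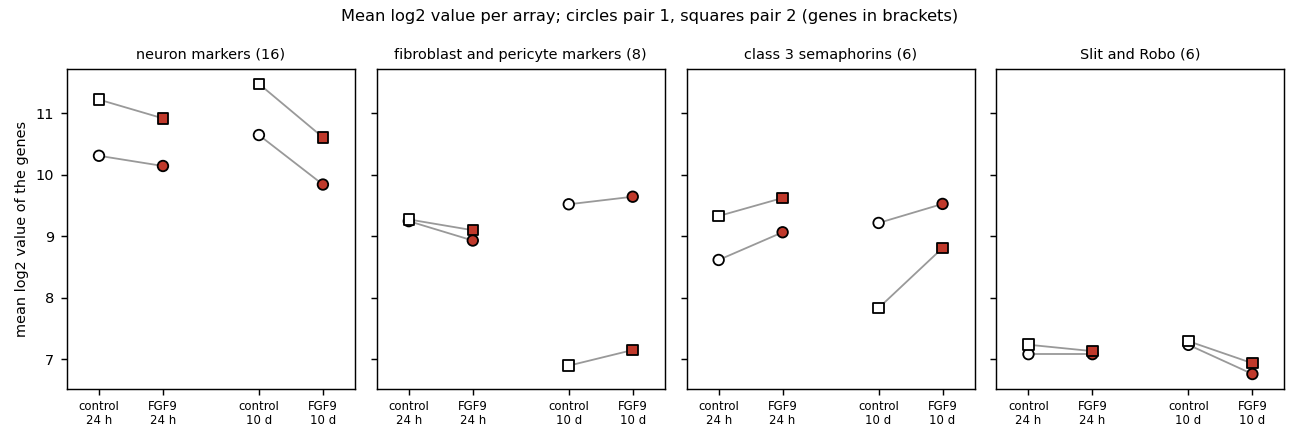
Mean log2 value of 4 gene groups on each array, with the number of genes in brackets, open symbols for control, red for FGF9, circles for pair 1 and squares for pair 2. Neuronal markers and the Slit and Robo genes are lower with FGF9 in both 10-day pairs, and fibroblast and pericyte markers drop to 6.90 and 7.15 on the AA1 arrays, where the class 3 semaphorin mean of the control is also lowest (7.83).

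Fibroblast markers were low on the AA1 arrays, control and FGF9 alike. The mean log2 level of 8 fibroblast and pericyte markers was 6.90 and 7.15 on the 2 AA1 arrays and 8.93 to 9.64 on the other 6, and none of the 8 was under 6 on every array. The gap lay in the collagens, Dcn and Lum: Col1a1 read 11.63 in the 10-day control of pair 1 and 7.38 in that of pair 2, whereas Acta2 read 10.25 and 10.09. With FGF9 at 10 days these genes went both ways (median 0.02, 4 higher and 4 lower), and the pericyte gene Rgs5 rose by 2.09 (limma adjusted p = 0.0107 with the block, 0.170 without). The class 3 semaphorin mean was 7.83 on the AA1 control and 8.81 on the AA1 FGF9 array, against 8.61 to 9.62 on the other 6. Sema3a and Sema3d, with 10-day control values lower in pair 2 by over 2 log2 units, are the members where this gap between pairs is widest. The part of fibroblasts or pericytes in these levels was not tested.

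Netrin signalling gave the largest difference of any member. Unc5b, a netrin receptor that mediates repulsion in axons and vessels, stood at 7.18 and 8.04 in the 10-day controls and at 9.44 and 10.00 with FGF9, so both FGF9 arrays lay well above both controls. It was higher by 2.11 ± 0.74 (4.31-fold; 2.25 and 1.96 in the pairs) but did not pass (limma adjusted p = 0.0626 with the block, 0.799 without). At 24 h its controls read 8.64 and 6.33 and both FGF9 arrays 8.90, which gives pair differences of 0.26 and 2.57. The low control of pair 2 carries that early difference, and its spread also enters the error at 10 days. With either 24 h pair left out, Unc5b passed at 10 days with the block, but that fit holds 1 array in each 24 h group.

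Ntn1, the secreted attractant of commissural axons, read 6.89 and 6.97 in 10-day controls and 7.51 and 8.69 with FGF9, without overlap. Its difference was 1.17 ± 0.61 (0.62 and 1.72 in the pairs; limma adjusted p = 0.0575 with the block). The other netrin receptors went the opposite way at 10 days, with Unc5c at -0.53, Dcc at -0.45 and Unc5a at -0.19, each lower in both pairs and none past the threshold. Dcc, the attractive netrin receptor, read 7.69 and 8.20 in 24 h controls and 7.36 and 7.53 with FGF9, so that the early groups did not overlap (-0.50).

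The Eph receptor medians, -0.09 at 24 h and -0.19 at 10 days, are the values of the low genes Epha1 and Epha8 and are not read. Of the 11 Eph receptors, 0 passed at either time. Epha2, a receptor that is found in dividing and epithelial cells and is a known target of ERK signalling, was the highest of them. It read 5.92 and 5.79 in 24 h controls and 6.87 and 7.30 with FGF9, with both FGF9 arrays above both controls, a difference of 1.23 ± 0.47 (0.96 and 1.51 in the pairs; limma adjusted p = 0.146 with the block, the smallest of any member at 24 h). At 10 days it read 5.91 and 5.27 in controls and 7.16 and 5.82 with FGF9, which overlap (0.90 ± 0.47; adjusted p = 0.0715 with the block). The Epha2 controls at both times, and the 10-day FGF9 array of pair 2, lay under 6, so both differences start from low values. Epha3, a receptor of neurons and glia, was the lowest at 24 h, at 7.05 and 7.65 in controls and 6.38 and 6.72 with FGF9, without overlap (-0.80 ± 0.48; adjusted p = 0.236 with the block). In pair 2 at 10 days it was 8.15 on both arrays. Ephb6, which lacks kinase activity, was the lowest Eph receptor at 10 days at -0.58.

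At 10 days 4 ephrins were higher and 3 lower on average. Among A-type ephrins, which are anchored by a lipid, Efna1, Efna2 and Efna4 were higher in both pairs by 0.40 to 0.41 on average, and Efna5, a repellent of retinal and motor axons, was lower in both. Among transmembrane B-type ephrins, Efnb2, which also signals backward into the cell that carries it, read 8.38 and 8.21 in controls and 7.73 and 7.12 with FGF9. Both FGF9 arrays lay below both controls. Efnb2 was lower by 0.87 ± 0.28 (1.83-fold; -0.66 and -1.09 in the pairs; limma adjusted p = 0.0463 with the block). The call was lost with array medians subtracted (adjusted p = 0.0530), without either 24 h pair (0.0690) and without pair 2 at 10 days (0.147). Without the block, the difference was -0.57 when the FGF9 array of pair 2 was left out. At 24 h its values overlapped, at 8.02 and 8.52 in controls and 8.24 and 8.34 with FGF9.

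Efnb3, a midline repellent of corticospinal axons that is made by myelinating oligodendrocytes, was below its controls on both arrays at both times. It read 8.04 and 7.96 against 7.74 and 7.14 at 24 h, and 7.60 and 8.33 against 7.34 and 7.33 at 10 days, with differences of -0.56 and -0.62 that did not pass (limma adjusted p with the block 0.402 and 0.167). Efnb1, another B-type ephrin, had the highest 10-day mean of the family (0.61), from pair differences of -0.04 and 1.26.

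**Figure D3:**
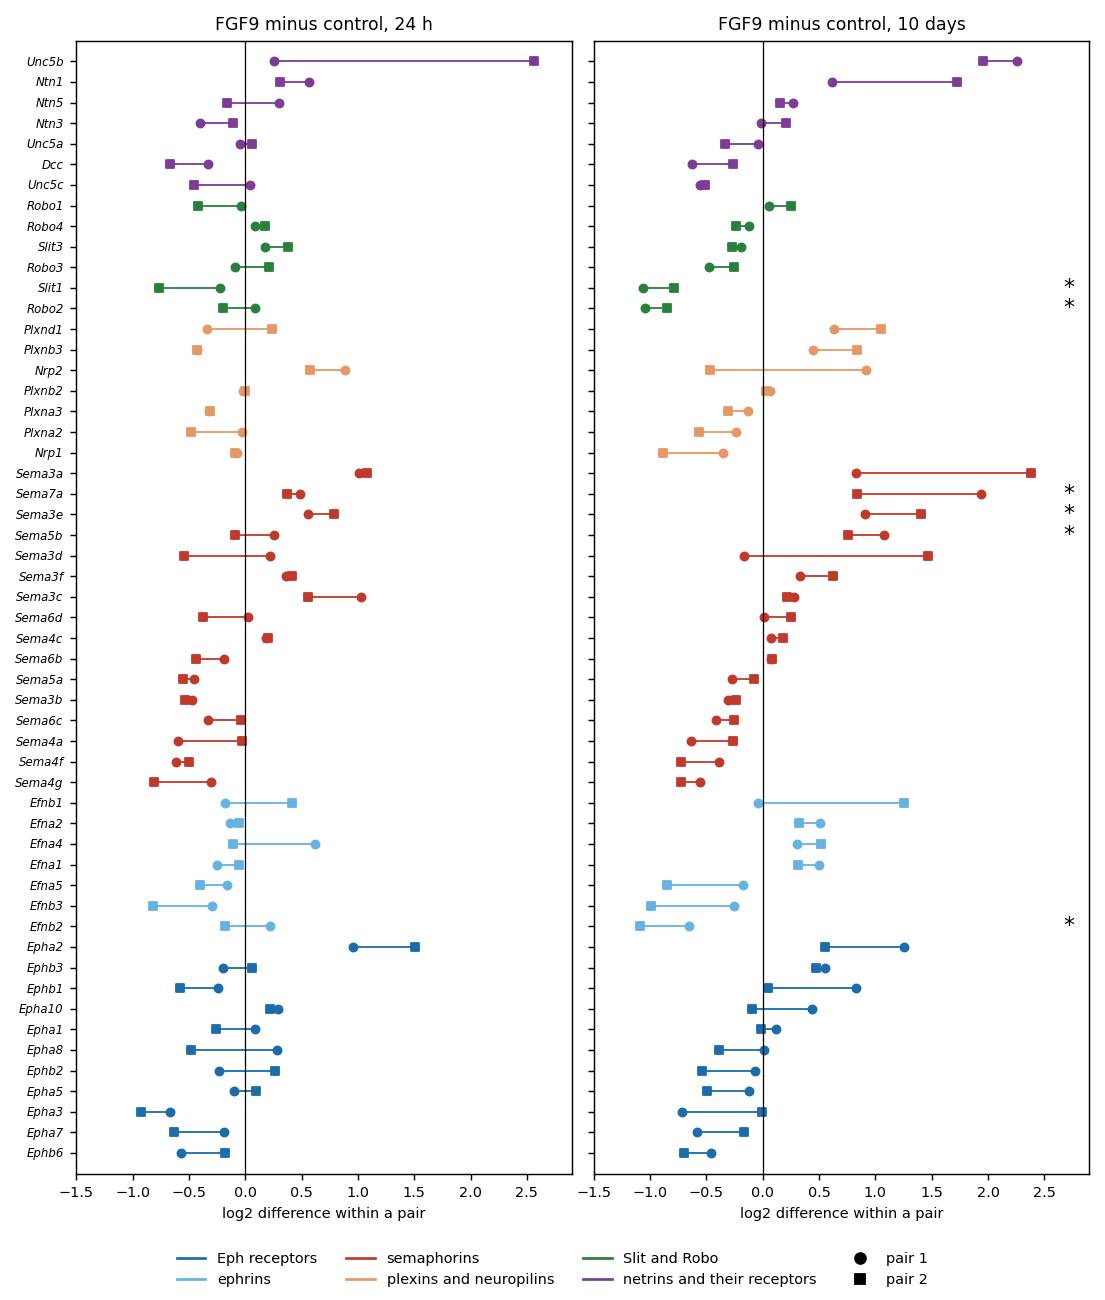
Log2 difference of FGF9 minus control within each pair for all 54 guidance genes at 24 h (left) and 10 days (right), grouped by family, with circles for pair 1, squares for pair 2 and asterisks for genes past 0.05 with the pair as a block. There are 6 asterisks at 10 days and 0 at 24 h, and Unc5b has the largest differences at 10 days (2.25 and 1.96) without an asterisk.

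At 24 h the question was which guidance genes respond early. In limma 0 members passed with or without the block, as did 0% of all genes in either fit. At an unadjusted p under 0.05 there were 2 members without the block (280 of all genes) and 15 with it (1800 of all genes). The members leaned to lower values, with 24 lower in both pairs (44.4%, against 32.9% of all genes), 13 higher in both (24.1%, against 31.8%) and 17 with pairs of opposite sign. Their median was -0.08, beside -0.0015 over all genes. At 24 h both FGF9 arrays lay above both controls for 9 members (16.7%, against 17.5% of all genes) and below both for 11 (20.4%, against 14.5%). At 10 days they lay above for 11 (20.4%, against 14.9%) and below for 7 (13%, against 11.3%). With the 10-day arrays of either pair dropped from the block fit, 2 members (Epha2 and Sema3a) and 237 genes (1.63%) passed at 24 h.

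Responsiveness of the cultures to FGF9 was read from 14 known targets of FGF receptor and ERK signalling. All 14 of 14 were higher on average at both times, with medians of 0.78 at 24 h and 1.28 at 10 days. At each time 13 of them were higher in both pairs (31.8% and 33.2% of all genes were), while the pairs of Egr1 had opposite signs. In the fit with the block 12 of them rose at 10 days (3.12% of all genes did), and 0 passed without it. Astrocyte markers had a median of -0.64 at 24 h, with 9 of 10 lower in both pairs (32.9% of all genes were), and -0.04 at 10 days. Myelin markers had medians of -0.57 and 0.15, and oligodendrocyte precursor markers 0.15 and 0.72. The part of these shifts in the member values was not tested.

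The effects at both times were next set side by side. Across the 54 members the differences at 24 h and 10 days correlated at r = 0.692, and across all 14506 genes at 0.424; these are descriptions across genes, which are not independent, and pair 2 at 24 h and pair 1 at 10 days share the CL2 prefix. Higher in both pairs at both times were 9 members (16.7%, against 14.2% of all genes), namely Epha2, Ntn1, Sema3a, Sema3c, Sema3e, Sema3f, Sema4c, Sema7a and Unc5b. Lower in both pairs at both times were 16 (29.6%, against 14.1%), among them Dcc, Slit1, Nrp1, Efnb3, Sema4f and Sema4g. Only 2 went from higher to lower in both pairs (3.7%, against 5.75% of all genes). They were Robo4 and Slit3, both with low values, and they are counted here without being read. From lower to higher went 7 (13%, against 7.8%), including Plxnb3, Efna1 and Ephb1.

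No member passed the test of the difference itself (10 days minus 24 h). In limma 0 members passed with or without the block, against 0.0483% of all genes with it (7 genes) and 0% without it. At an unadjusted p under 0.05 were 11 members with the block (1866 of all genes) and 1 without (276 of all genes). The 4 changes with the smallest p were 1.07 ± 0.60 for Plxnb3 (adjusted p = 0.237 with the block), -0.89 ± 0.29 for Robo2 (0.239), 0.83 ± 0.92 for Sema5b (0.260) and -0.89 ± 0.39 for Efnb2 (0.267). The late calls on Robo2, Sema5b and Efnb2 are thus not shown to differ from their early values.

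**Figure D4:**
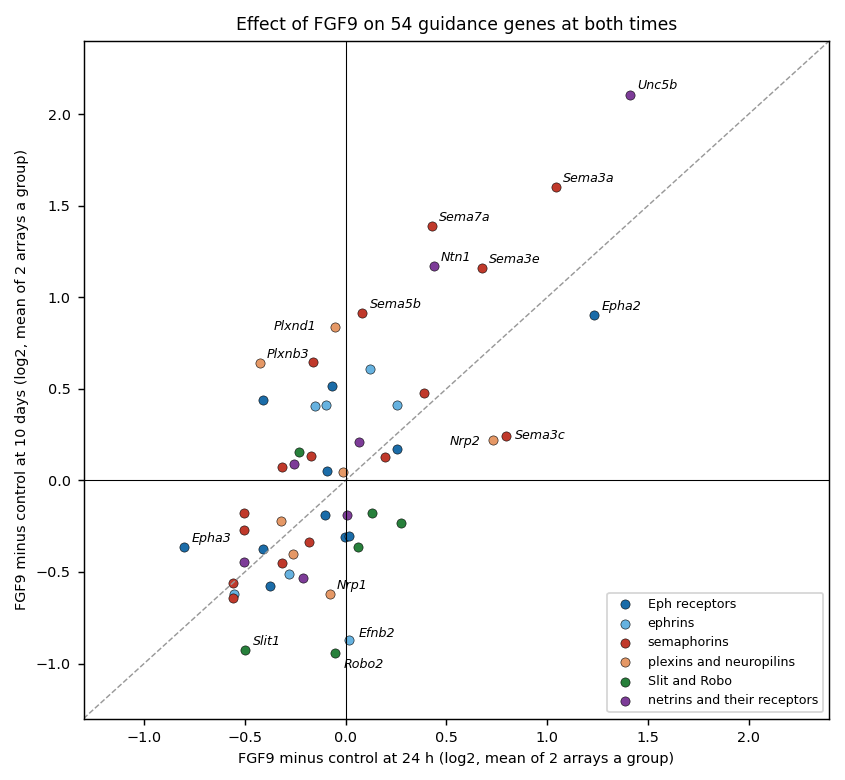
FGF9 minus control at 24 h (horizontal) against the same at 10 days (vertical) in log2 units for the 54 guidance genes, coloured by family, with the dashed line marking equal differences. Unc5b and Sema3a lie highest at the upper right (1.41 and 1.04 early, 2.11 and 1.60 late), and Robo2 and Efnb2 lie near 0 early and at -0.94 and -0.87 late.

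In cultures without FGF9, guidance genes were compared between 10 days and 24 h. Without the block, limma passed 0 members and 0% of all genes, and 0 members and 415 genes had an unadjusted p under 0.05. With the prefix as a block, 0 members and 0.00689% of all genes (1 gene) passed. There, 18 members and 1990 of all genes were at an unadjusted p under 0.05. Without the block the largest differences were -1.43 ± 0.98 for Sema3a, -1.23 ± 0.61 for Ntn1 and -0.96 ± 0.42 for Plxnb3 on the lower side, and 0.84 ± 0.73 for Unc5a and 0.68 ± 0.65 for Sema5b on the higher. Ntn1 read 8.70 and 7.61 at 24 h and 6.89 and 6.97 at 10 days, without overlap. Plxnb3 read 9.56 and 8.60 and then 8.23 and 8.03, also without overlap. With the prefix as a block, Unc5a was at -0.054 and Sema5b at -0.20, so both turned sign, while Sema3a (-0.86), Ntn1 (-0.93) and Plxnb3 (-0.47) stayed lower. The member median went from -0.0054 to -0.22. Time and prefix are largely confounded here, because only CL2 occurs at both times.

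Other genes of the pathway were read from 3 lists. Of 25 further guidance ligands and co-receptors 20 were measured, with medians of -0.21 at 24 h and -0.19 at 10 days; 0 passed at 24 h in limma with or without the block (0 and 6 at an unadjusted p under 0.05), and at 10 days 2 fell and 0 rose with the block (3.31% of all genes fell), while 0 passed without it. L1cam, an adhesion molecule of axons and partner of neuropilin 1, read 8.72 and 10.73 in 10-day controls and 7.49 and 9.51 with FGF9. Its pair differences were -1.23 and -1.23 although the pairs stood about 2 units apart (limma adjusted p = 0.0216 with the block). Cntn2, a lipid-anchored axonal adhesion protein, fell by 0.92 (adjusted p = 0.0248 with the block). Early, Met, the receptor for hepatocyte growth factor, was at 0.92 ± 0.74 and the chemokine Cxcl12 at -1.63 ± 1.31, neither past the threshold.

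Among downstream effectors 37 of 45 were measured, with medians of -0.05 and 0.08. Chn1, a Rac-inactivating protein that acts behind Eph receptors, was the only 1 to pass, at 10 days and with the block alone (6.43% of all genes passed there, and 0 effectors without the block). It read 8.89 and 10.49 in 10-day controls and 7.96 and 9.55 with FGF9, and fell by 0.94 (limma adjusted p = 0.0220 with the block). Ptk2, the focal adhesion kinase, was at 0.62 ± 0.18 at 24 h and 0.61 ± 0.18 at 10 days and Gap43, a growth cone protein, at 0.93 ± 0.75 at 24 h, none past the threshold. Of 10 myelin-associated inhibitors of outgrowth and their receptors 9 were measured, with medians of -0.24 and -0.16. None passed in limma with or without the block at either time (with the block 4 were at an unadjusted p under 0.05 at 24 h and 1 at 10 days; without it, 0 at both). Omg, a myelin inhibitor, was at -0.45 and -0.38. L1cam, Cntn2 and Chn1 are known as neuronal genes, neuronal markers were lower on the same arrays, and the part of that shift in their values was not tested.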

How the data were processed

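Total RNA from rat myelinating cultures was hybridised to Affymetrix Rat Gene 1.0 ST arrays after biotin labelling, per the labels' protocols. The deposited table holds 1 log2 value per feature and array; the scale was read from the values (3.61 to 14.6), and the authors used Partek 6.5 and GCRMA, per the submitters' processing notes. No source used here names further steps. Of 29214 features, the 15310 with 1 gene symbol in the platform annotation were used, 323 with several and 13581 with none were left out, and 15279 were found in the RefSeq table. The feature with the highest mean was taken for the 527 genes with several, which left 14506 genes.

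Differences were fitted with limma 3.58.1 in R 4.3.3 on all 8 arrays (1 mean per group, Benjamini-Hochberg over all genes, threshold 0.05), without a block as the main fit and with the replicate pair as a block beside it. The numbers were taken to pair the arrays because, over all genes, deviations of same-numbered control and FGF9 arrays from their group means correlated at 0.757 at 24 h and 0.819 at 10 days, and because they share an array-name prefix. What the prefix marks is not stated. The number of arrays limits the precision.

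Members were chosen by symbol, and members and gene lists were chosen with earlier results of these data known. Named are members that passed in either fit, the 5 largest rises and falls of each FGF9 contrast among those with 1 sign in both pairs, the ends of each family, and up to 4 genes per list; other members were named after their values were seen. Alternatives were the block, a random prefix block, quantile normalization, subtracted array medians, dropping genes under 6, the mean of features, and leaving out each array or pair.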

Additional observations from a re-analysis of the deposited data

How the results depend on the processing

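Without a block, 0 members passed in either FGF9 contrast under any scaling, filter or left-out array tried. At 10 days 6 passed with the replicate block and 2 (Robo2, adjusted p = 0.0471, and Sema3e, 0.0369) with the prefix as a random block in limma. Further block settings, chosen after the data were seen, gave 7 with quantile normalization and 6 with array medians subtracted (5 of them shared). Leaving out a pair gave 3 without either 24 h pair, 13 without pair 1 at 10 days (4 shared; 1506 genes passed) and 4 without pair 2 at 10 days (3 shared). At 24 h the block count was 2 without either 10-day pair, against 0. The causes were not tested. The median member difference at 24 h ranged from -0.13 to -0.046 when arrays were left out in turn. At 10 days it ranged from -0.098 to 0.089, and was 0.024 with quantile normalization, 0.098 with array medians subtracted, 0.073 without genes under 6, -0.047 without pair 1 and -0.028 without pair 2, so it has no settled sign. With an array left out, Sema3b at 24 h ranged from -1.05 to 0.035 (0.0069 without the control of pair 1), and Sema4g at 10 days from -1.37 to 0.084 (0.0027 without the FGF9 array of pair 1). Of 294 values of named members under alternatives, 282 kept direction and call, 8 passed where they had not, and 4 reversed, but sizes moved: with an array left out and no block, Sema5b at 10 days ranged from 0.064 to 1.76, Slit1 from -1.57 to -0.28 and Sema3a from 0.17 to 3.03. With 2 arrays a group, the median SE of a member was 0.43 without the block and 0.16 with it, and differences of about that size cannot be resolved. The limit lies well above 1 SE. The smallest member difference called with the block was 0.87 in size (Efnb2, lower at 10 days), and several larger ones did not pass. Without the block even 2.11 (Unc5b at 10 days) did not pass.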
